A study of Homo sapiens with 4 samples.

Results

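Metallothionein and zinc transporter genes were examined in the human glioma line GBM8401 and in temozolomide-resistant cells derived from it. The set holds 10 genes, found by their GENCODE symbols among the 58219 gene IDs of the deposited table: the metallothioneins MT1E, MT1F, MT1G, MT1M, MT1X and MT2A, the transcription factor MTF1, the zinc exporter SLC30A1 and the zinc importers SLC39A10 and SLC39A14. All 10 were found. The genes are taken by name, with no threshold on a measured value, but the set was drawn up with earlier results of these data known. The parental group held 2 libraries of GBM8401 cells in serum-supplemented RPMI1640 medium. The resistant group held 2 libraries of cells kept for 140 days in medium with 200 µM temozolomide (TMZ), a drug that methylates DNA. No separately derived resistant lines are named, so both resistant libraries are treated as 1 derived line. No engineered allele or transgene is named for either group. Sources used here do not say whether drug was present when RNA was taken. The labels call the replicates biological but tie them to no culture date, so p-values measure the spread between these libraries and not between independently derived resistant lines.

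Metallothioneins are small, cysteine-rich proteins that bind zinc, copper and cadmium and buffer free zinc in the cell. MTF1 senses zinc and switches on metallothionein genes and SLC30A1 through short metal response elements in their promoters. Exporters of the SLC30 family (ZnT) move zinc out of the cytosol, and importers of the SLC39 family (ZIP) move it in. Metallothioneins are also known to respond to glucocorticoids and stress, and astrocytes express them.

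The metallothionein genes are near copies of each other, which bears on how fragments can be assigned to them. The coding sequences of the 3 metallothioneins with more than trace values are shown for that reason. They come from the GENCODE 29 transcripts (build GRCh38, chromosome 16, plus strand), each with 183 bases before the stop codon, and capitals mark the 22 positions at which the 3 differ. The coding span is 56682541 to 56684046 for MT1X, 56625852 to 56626968 for MT1E and 56608656 to 56609351 for MT2A, with introns inside each span.
MT1X: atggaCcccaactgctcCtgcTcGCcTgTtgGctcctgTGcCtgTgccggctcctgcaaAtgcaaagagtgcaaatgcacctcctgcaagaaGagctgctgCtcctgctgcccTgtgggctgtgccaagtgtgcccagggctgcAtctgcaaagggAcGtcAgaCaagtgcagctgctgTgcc
MT1E: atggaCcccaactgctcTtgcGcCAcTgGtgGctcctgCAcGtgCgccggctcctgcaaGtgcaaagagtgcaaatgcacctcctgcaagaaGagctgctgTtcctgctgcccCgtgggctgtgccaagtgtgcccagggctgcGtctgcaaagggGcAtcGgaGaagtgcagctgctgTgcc
MT2A: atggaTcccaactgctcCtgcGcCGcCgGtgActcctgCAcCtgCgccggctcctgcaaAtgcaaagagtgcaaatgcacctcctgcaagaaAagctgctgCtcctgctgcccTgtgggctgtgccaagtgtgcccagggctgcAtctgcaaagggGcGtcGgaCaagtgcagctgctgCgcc
Of the 61 codons in each, 20 are TGC or TGT. MT1X and MT1E differ at 17 bases (90.7% identity), MT1X and MT2A at 14 (92.3%), and MT1E and MT2A at 14 (92.3%).

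Shared stretches were counted over whole transcripts. In the main MT1X transcript of 450 bases, 64 of 401 windows of 50 bases also occurred in another metallothionein gene or pseudogene, and 45.1% occurred in any other gene, AC026461.1 included. The shares for 50-base windows were 5.3% in MT1E, 4.9% in MT2A and 20.2% in MT1G, and no 100-base window of the 6 metallothioneins was shared with another metallothionein. The sources used here give no read length. MT1X also overlaps AC026461.1, a noncoding gene on the same strand, and 19.1% of its 100-base windows occur there too. AC026461.1 was listed at 0 in all 4 libraries. SLC30A1, SLC39A10 and SLC39A14 shared 0.0% of their windows with other genes at either length.

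Upstream sequence is shown for the member that rose and for the exporter that fell, since both are known targets of MTF1. RefSeq promoter windows (GRCh38.p14, 300 bases each) matched 5 of the 10 genes: MT1X, MT2A, MTF1, SLC30A1 and SLC39A10. The core metal response element was searched as TGCACNC or TGCGCNC on both strands, and capitals mark the matches. Positions are counted from the RefSeq start, the base before it being −1. The stretch of MT1X runs from −160 to −47 (chr16:56682310-56682423, plus strand) and that of SLC30A1 from −100 to −1 (chr1:211579162-211579261, minus strand).
MT1X: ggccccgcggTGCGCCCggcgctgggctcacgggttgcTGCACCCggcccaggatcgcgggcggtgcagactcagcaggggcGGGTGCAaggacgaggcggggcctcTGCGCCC
SLC30A1: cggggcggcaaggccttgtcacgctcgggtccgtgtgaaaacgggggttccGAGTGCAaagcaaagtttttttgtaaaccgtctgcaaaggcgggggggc
The MT1X window held 4 matches, the MT2A window 8, the SLC30A1 window 2 and the MTF1 window 0. Both SLC30A1 matches read against the gene, and 1 of them lies after the start, outside the stretch shown. Of the 8 MT2A matches, 7 lie before the start. SLC39A10 has 2 windows, with 0 matches in one and 1 match, after the start, in the other. Among all 35116 promoter windows of that length, 29.6% held at least 1 match, 8.6% at least 2, 0.601% at least 4 and 0.0199% at least 8. A match describes letters only, and binding was not measured.

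Of the 10 genes, 7 passed the filter on low values and 3 (MT1F, MT1G and MT1M) did not. Values are fragment numbers multiplied by 1 factor per library, and a single fragment is worth 0.753 to 0.956. Between groups, 1 gene rose (MT1X), 2 fell (MT1E and SLC30A1), and the other 4 did not pass (limma, adjusted p under 0.05 over all genes). Of all 16132 genes tested, 37.1% passed, 16.2% as higher and 20.9% as lower, so 3 of 7 is a share near the background. The groups did not overlap in any of the 7, a pattern that 68.6% of all genes tested showed. The median log2 fold change was −0.18 over the 7 genes and −0.02 over all genes tested. With scaling to the library total in place of the deposited scaling, 56.9% of all changed genes were higher instead of 43.7%.

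**Figure D1:**
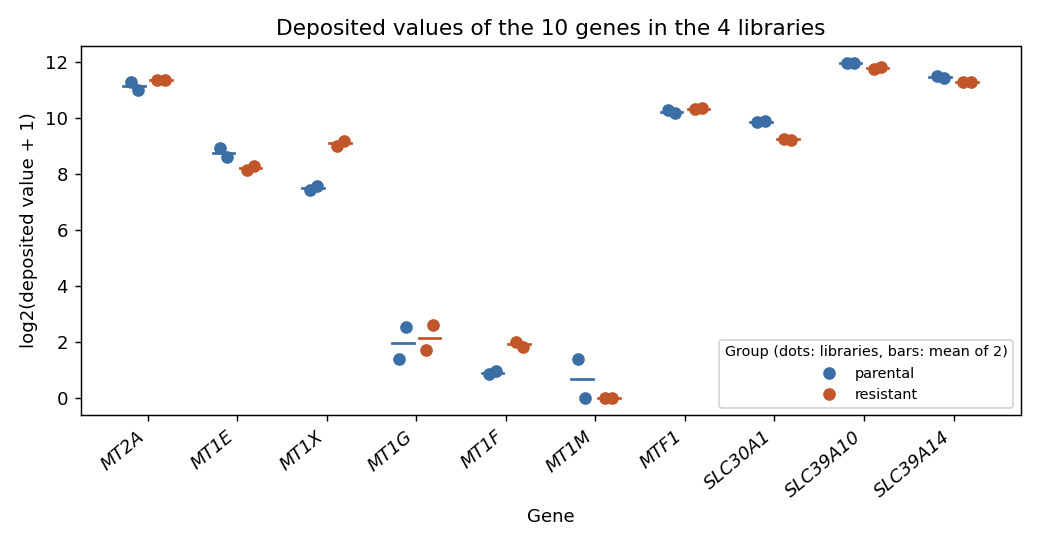
Values of the 10 genes in each library on the y axis as log2(deposited value + 1), with genes on the x axis. Dots are the 4 libraries and bars the mean of the 2 libraries of a group. MT1X is the gene with the widest gap between groups among the 7 tested, and MT1G, MT1F and MT1M lie near 0.

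MT1X (ENSG00000187193, GRCh38 chromosome 16, 56682424 to 56684196, plus strand), an inducible metallothionein, rose about 3-fold in resistant cells. Deposited values of 170.0 and 188 in parental cells compared with 515 and 578 in resistant cells. Both resistant libraries lay far above both parental ones, and the libraries of a group lay close together. The means were 179 ± 12.96 and 546 ± 44.1 (SD, n = 2). The log2 fold change was 1.60 ± 0.13 (SE; limma, adjusted p = 1.32e-04). Leaving out each library in turn gave 1.52 to 1.68, and the call held each time.

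MT1E (ENSG00000169715, chromosome 16, 56625475 to 56627112, plus strand), from the same cluster, went the other way and fell 1.46-fold. Parental cells had 482 and 389, resistant cells 280.1 and 312. The groups did not overlap, but the parental libraries were far apart. The means were 435 ± 65.4 and 296 ± 22.3 (SD, n = 2), with a log2 fold change of −0.55 ± 0.14 (SE; limma, adjusted p = 0.0178). This call rests on parental replicate 1 and on resistant replicate 1. Without the first the value was −0.40 (adjusted p = 0.0767), and without the second −0.47 (adjusted p = 0.106).

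MT2A (ENSG00000125148, chromosome 16, 56608199 to 56609497, plus strand), the major human metallothionein, had the highest level per kilobase of transcript among the 10 genes. In deposited values, parental cells had 2486 and 2069, and each resistant library had 2643. Both resistant libraries lay above the parental ones, by less than the distance between the parental libraries in the case of parental replicate 1. The means were 2277 ± 295 and 2643 ± 0.156 (SD, n = 2). The log2 fold change of 0.22 ± 0.10 (SE) did not pass (limma, adjusted p = 0.116). It passed as higher with scaling to the library total (0.32, adjusted p = 0.0395) and without parental replicate 1 (0.35, adjusted p = 0.0197).

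The other metallothionein members were at trace level. MT1G was listed at 1.63 and 4.78 in parental cells and at 2.26 and 5.10 in resistant cells, which is 2 to 6 fragments. MT1F was listed at 0.813 and 0.956 against 3.01 and 2.55, that is 1 and 1 against 4 and 3 fragments. MT1M was listed at 1.63 in parental replicate 1 and at 0 in the other libraries. No fold is given for these 3 genes, and a difference between groups was not detectable at this depth.

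Across the 12 metallothionein genes of the family, 3 were tested, 1 rose and 1 fell, against 37.1% of all genes tested that were called. These 3 are MT1X, MT1E and MT2A, described above. MT1B, MT1H, MT1HL1, MT3 (the brain form) and MT4 were listed at 0 in all 4 libraries, and MT1A reached at most 0.849. Of 9 metallothionein pseudogenes, 7 were listed at 0 throughout. MT1L was the 1 that could be tested, with 48.0 and 41.1 for parental cells against 56.5 and 60.3 for resistant cells. Its log2 fold change of 0.39 ± 0.24 (SE) did not pass (limma, adjusted p = 0.251).

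In the summed metallothionein values, the groups did not overlap in the shares of MT1X, MT1E and MT2A. The sum of deposited values, which are not divided by length, over the 12 genes came to 3143 and 2652 for parental cells, against 3444 and 3541 for resistant cells. MT1X made up 5.41% and 7.10% of it in parental cells, against 14.96% and 16.3% in resistant cells. The share of MT1E was 15.3% and 14.7% in parental against 8.13% and 8.80% in resistant libraries. The share of MT2A was 79.1% and 78.0% in parental against 76.8% and 74.6% in resistant libraries. Shares of 1 sum depend on each other, and the values of MT2A themselves were higher in both resistant libraries. Per kilobase of main transcript, the MT1X share was 8.92% and 11.6% in parental cells, against 23.3% and 25.1% in resistant cells. The ratio of MT1X to MT1E was 0.353 and 0.484 in parental cells and 1.84 and 1.85 in resistant cells, on the scale of deposited values. Per kilobase, MT1X lay below MT1E in both parental libraries and above it in both resistant ones. The ratio within a library does not depend on the scaling. No test was run on the shares or the ratio.

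**Figure D2:**
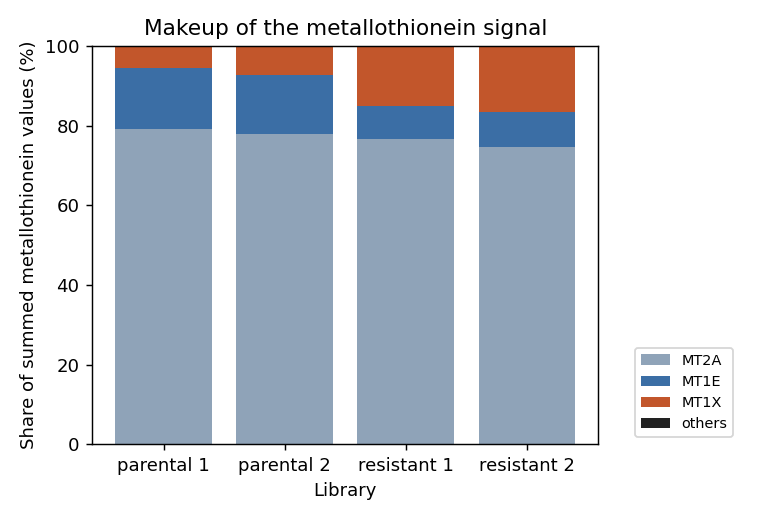
Each bar is 1 library, and its parts are the shares of MT2A, MT1E, MT1X and the other 9 family members in the summed metallothionein values (%). The MT1X part is 14.96% and 16.3% in the resistant libraries, against 5.41% and 7.10% in the parental ones.

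MTF1 (ENSG00000188786, chromosome 1, 37809567 to 37859620, minus strand), the zinc-sensing factor, gave no called difference. Parental cells had 1256 and 1149, resistant cells 1276 and 1302. The resistant libraries lay just above parental replicate 1. The log2 fold change was 0.10 ± 0.09 (SE; limma, adjusted p = 0.411) and 0.20 with scaling to the library total, and it was not called under any of the 13 other settings tried.

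SLC30A1 (ENSG00000170385, chromosome 1, 211571568 to 211578742, minus strand) encodes ZnT1, the zinc exporter of the plasma membrane. It fell 1.54-fold in resistant cells. Parental cells had 917 and 939, resistant cells 608 and 598, with wide separation and close replicates. The means were 928 ± 15.6 and 603 ± 7.47 (SD, n = 2), with a log2 fold change of −0.62 ± 0.09 (SE; limma, adjusted p = 0.00152). The call held under all 13 other settings, with values from −0.64 to −0.53. SLC30A1 and MT1X, both known MTF1 targets, moved in opposite directions, while MT1E fell (−0.55) and MT2A was not called (0.22). MTF1 activity was not measured, and its part in these values was not tested.

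The importers among the members were lower by amounts that did not pass. SLC39A10 (ZIP10; ENSG00000196950, chromosome 2, 195575977 to 195737702, plus strand) had values of 4023 and 4018 in parental cells, against 3453 and 3620 in resistant cells. SLC39A14 (ZIP14, which also carries iron and manganese; ENSG00000104635, chromosome 8, 22367249 to 22434129, plus strand) had 2865 and 2755, against 2502 and 2472. In both genes every resistant library lay below every parental one. The log2 fold changes were −0.19 ± 0.07 and −0.18 ± 0.08 (SE; limma, adjusted p = 0.0793 and 0.101). With scaling to the library total they were −0.09 and −0.08 (adjusted p = 0.344 and 0.451).

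The order of levels among the genes was read per kilobase of the main GENCODE transcript. In parental cells MT2A stood first at 2632 to 3163 per kilobase, followed by SLC39A10 at about 740.2. MT1E (553 to 684) and SLC39A14 (594 to 617) overlapped and cannot be ordered. MT1X followed at 378 to 419, then SLC30A1 at 167 and 172, and MTF1 at 144 and 158. In resistant cells MT1X was at 1145 and 1283 per kilobase and stood second, above SLC39A10 at 636 and 667. MTF1, at 160.1 and 163, lay above SLC30A1, at 111 and 109. The position of MT1X depends on the length used. Over all its annotated exons (1773 bases, retained introns included) its resistant mean was 308 per kilobase, below the 511 of SLC39A10.

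In the ZnT family, 7 of 10 genes were tested, 1 rose and 1 fell, against 37.1% of all genes tested that were called, with a median log2 fold change of −0.08. SLC30A4, which loads zinc into vesicles, had 322 and 383 in parental cells, against 456 and 490.0 in resistant cells. Its log2 fold change was 0.43 ± 0.13 (SE; limma, adjusted p = 0.0327). This call was lost without parental replicate 1 (0.30), resistant replicate 1 (0.48) or resistant replicate 2 (0.37). SLC30A1 was the member that fell. The exporters of the secretory pathway and other organelles (SLC30A5, SLC30A6, SLC30A7, SLC30A8 and SLC30A9) ranged from −0.13 to 0.05 and did not pass. SLC30A10, a manganese exporter, was listed at 0 in every library.

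In the ZIP family, 10 of 14 genes were tested, 2 rose and 2 fell, with a median of −0.18. These 4 of 10 are a share near the 37.1% of all genes tested. SLC39A8 (ZIP8, a carrier of zinc, manganese and cadmium) had the lowest adjusted p of the family. It had 1946 and 2106 in parental cells and was 1.46-fold lower in resistant cells, with 1409 and 1372. Its log2 fold change was −0.54 ± 0.08 (SE; limma, adjusted p = 0.00170), and the call held under all 13 other settings. SLC39A6 (ZIP6), which is known to pair with ZIP10, had 3614 and 3229 in parental cells, against 2798 and 2578 in resistant cells. Its log2 fold change was −0.35 ± 0.09 (SE; limma, adjusted p = 0.0157). The SLC39A6 call was lost without parental replicate 1 (−0.27), without resistant replicate 2 (−0.29) and with scaling to the library total (−0.25).

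SLC39A9 and SLC39A4 were the ZIP genes that rose. SLC39A9 (ZIP9) had 3038 and 3073 in parental cells, against 3642 and 3795 in resistant cells, a log2 fold change of 0.28 ± 0.07 (SE; limma, adjusted p = 0.0173). It overlaps ERH on the other strand, which fell by 0.30 on the log2 scale. SLC39A4 (ZIP4, the intestinal importer) was low, with 120 and 139 against 171 and 205. Its log2 fold change was 0.54 ± 0.18 (SE; limma, adjusted p = 0.0437). The SLC39A9 and SLC39A4 calls were each lost without parental replicate 1 (0.27 and 0.43), resistant replicate 1 (0.31 and 0.66) or resistant replicate 2 (0.25 and 0.41). The other tested importers, SLC39A1, SLC39A3, SLC39A11 and SLC39A13, had log2 fold changes of −0.24, 0.08, 0.34 and −0.38 and did not pass. Their adjusted p-values (limma) were 0.0554, 0.699, 0.0501 and 0.0896. SLC39A11 passed as higher with scaling to the library total (0.44, adjusted p = 0.0128). SLC39A1 and SLC39A13 passed as lower with the replicate number as a block (−0.24 and −0.38). SLC39A3 overlaps the coding gene AC006538.2 on the same strand. SLC39A7, the importer of the endoplasmic reticulum, was listed at 0 in all libraries. It lies on chromosome 6 between 29 and 34 Mb, where 64.4% of 180 coding genes were listed at 0, against 13.4% of 19610 elsewhere, so its 0 is not read as absence.

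**Figure D3:**
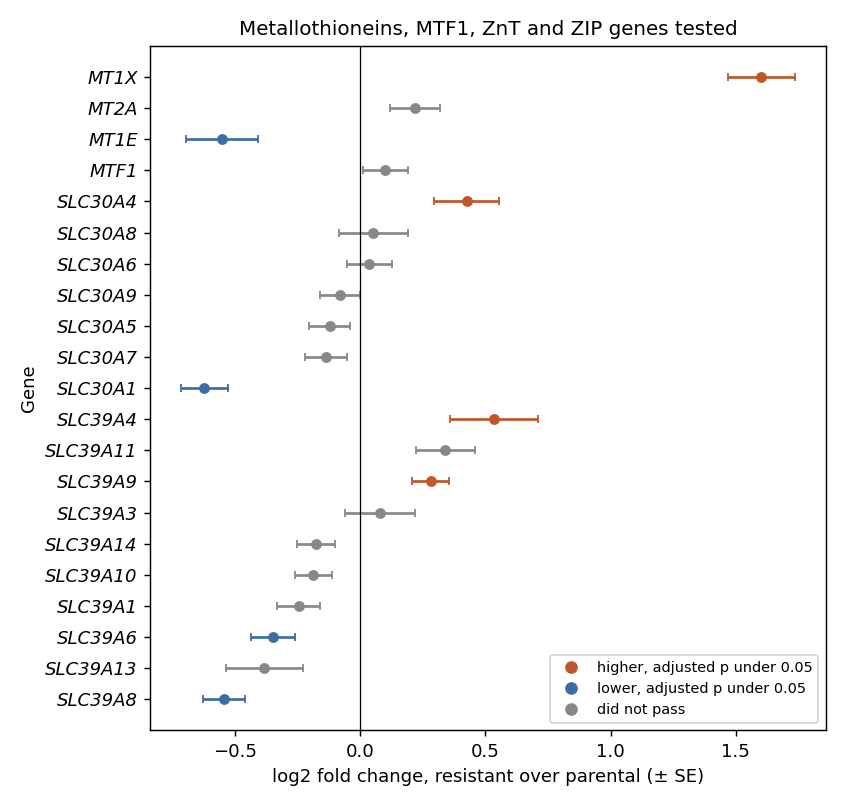
Log2 fold change of resistant over parental cells (x axis) with its SE for the tested metallothioneins, MTF1, ZnT and ZIP genes (y axis), coloured by the limma call. MT1X stands alone at 1.60, while the transporters lie between −0.62 (SLC30A1) and 0.54 (SLC39A4).

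Of 11 zinc accessory genes, 10 were tested, 1 fell and 0 rose, against 37.1% called of all genes tested (limma; at an unadjusted p under 0.05 also 1 and 0). GPR39, a zinc-sensing receptor, had 180 and 224 in parental cells, against 99.4 and 123 in resistant cells. It fell 1.81-fold (log2 fold change −0.85 ± 0.19, SE; limma, adjusted p = 0.00946). Without resistant replicate 1 this call was lost (−0.70, adjusted p = 0.0624). GPR39 overlaps LYPD1 on the other strand.

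Copper is the other metal that metallothioneins hold in human cells. All 17 copper handling genes were tested, 3 rose and 2 fell, against 37.1% of all genes tested that were called, with a median log2 fold change of 0.04. SLC31A1, the main copper importer, had 2466 and 2078 in parental cells, against 3615 and 3263 in resistant cells. Its log2 fold change was 0.60 ± 0.10 (SE; limma, adjusted p = 0.00268). The SLC31A1 call was lost with no trend and no robust moderation (adjusted p = 0.0509). SLC31A1 overlaps CDC26 on the other strand. CCS, the chaperone that hands copper to superoxide dismutase, rose by 0.67 ± 0.12, and its client SOD1 had a value of −0.01 ± 0.09 that did not pass. CUTC rose by 0.52, and the cytochrome oxidase assembly genes SCO1 and SCO2 had values of −0.30 and −0.61 that passed as lower. SCO2 overlaps another SCO2 entry of the annotation over 2039 bases, and also TYMP, both on the same strand. The CUTC, SCO1 and SCO2 calls were each lost without resistant replicate 1 (0.60, −0.26 and −0.60) or resistant replicate 2 (0.44, −0.34 and −0.62). Without parental replicate 1 those of CUTC (0.35) and SCO1 (−0.25) were lost, and without parental replicate 2 that of SCO2 (−0.53). The copper exporters ATP7A and ATP7B were at 0.35 and 0.27 without passing (limma, adjusted p = 0.0683 and 0.160). With scaling to the library total both passed as higher (0.45 and 0.36, adjusted p = 0.0129 and 0.0483). ATP7A overlaps PGK1 on the same strand.

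Apart from MT1HL1 on chromosome 1, the metallothionein genes of the family lie in 1 cluster on chromosome 16. The genes around that cluster went both ways. Among 22 other genes tested within 1000 kb of the MT2A start, 4 rose and 7 fell, against 16.2% and 20.9% of all genes tested, with a median log2 fold change of −0.21. The nearest genes that were called on either side were BBS2, OGFOD1 and NUDT21 on one side and NUP93 on the other. BBS2, of the ciliary BBSome, rose by 0.81, while OGFOD1 and the RNA processing gene NUDT21 fell by 0.25 and 0.61. The OGFOD1 call was lost without parental replicate 1 (−0.21), resistant replicate 1 (−0.26) or resistant replicate 2 (−0.23). NUP93, a nuclear pore gene, was at −0.44. HERPUD1, an endoplasmic reticulum stress gene, rose by 0.90. The list of 19 neighbours chosen by name gave 4 higher and 5 lower among 16 tested. Its other called genes were GNAO1 (1.15) and COQ9 (0.25), both higher, and CIAPIN1 (−0.41) and POLR2C (−0.38), both lower. Without resistant replicate 1 these 4 calls were lost, as were those of POLR2C without resistant replicate 2 and of COQ9 without any 1 of the 4 libraries. BBS2 and NUDT21 both overlap OGFOD1 on the other strand.

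**Figure D4:**
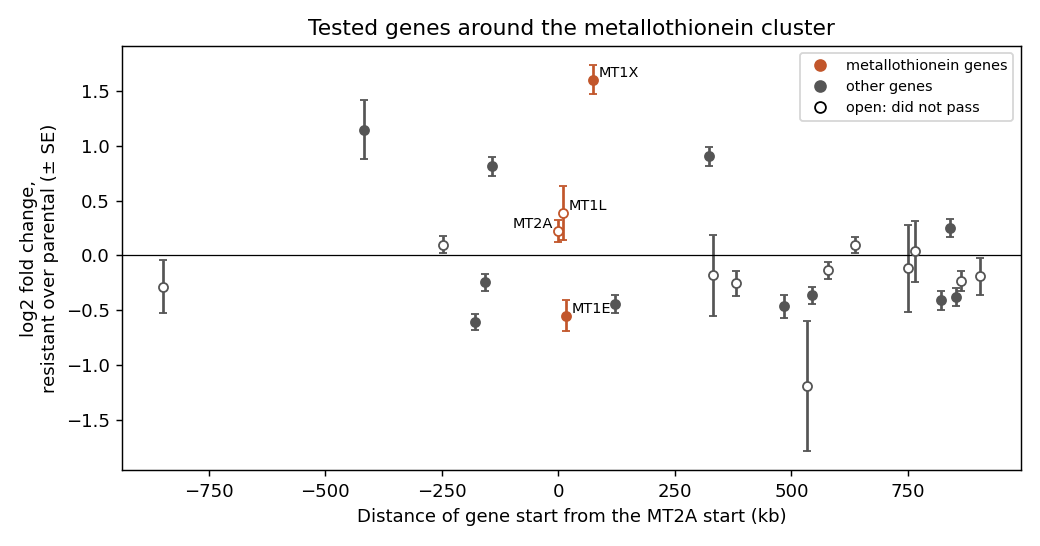
Log2 fold change with its SE (y axis) for tested genes by the distance of their start from that of MT2A (x axis, kb). Filled points passed the limma test, and within the cluster MT1X (1.60) and MT1E (−0.55) lie on opposite sides of 0.

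The libraries were of similar depth, with deposited totals of 23163310 to 25832511, which correspond to 27019137 to 30759939 fragments. Of 9 glioma and glial markers 5 were tested, 3 fell and 0 rose. VIM (47407 to 81177) and CD44 (14811 to 21730) were abundant and both fell, as did NES. Among SOX2, OLIG2 and FABP7, 2 were tested and did not pass, and the other was below the filter on low values. The 9 markers, VIM and CD44 included, summed to 104098 and 108669 in parental cells, against 65879 and 73701 in resistant cells. The astrocyte markers GFAP, AQP4 and S100B were at most 4.25 in any library. Markers of other cell types moved with the groups in part. Of all genes tested, 37.1% were called, 16.2% as higher and 20.9% as lower, and the marker counts were not tested against these shares. The 4 epithelial markers summed to 17451 and 19714 in parental cells, against 34030 and 36036 in resistant cells, with KRT8 and KRT18 called higher and none at 0. Of 4 endothelial markers, all tested, CDH5, TIE1 and TEK fell, and the sum of the 4 was 1237 and 1447 against 845 and 748. Of 4 hematopoietic markers 3 were tested and CD68 rose, and of 3 neuron markers, all tested, RBFOX3 did. Of 5 fibroblast markers, and of the 2 tested among 3 oligodendrocyte markers, none was called (limma, 0 also at an unadjusted p under 0.05). MOG and AIF1 were listed at 0. Both lie in the same part of chromosome 6 as SLC39A7, so their 0 is not read as absence either. The part of these markers in the results was not tested, and in bulk RNA fewer cells of a type and less RNA per cell cannot be told apart.

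**Figure D5:**
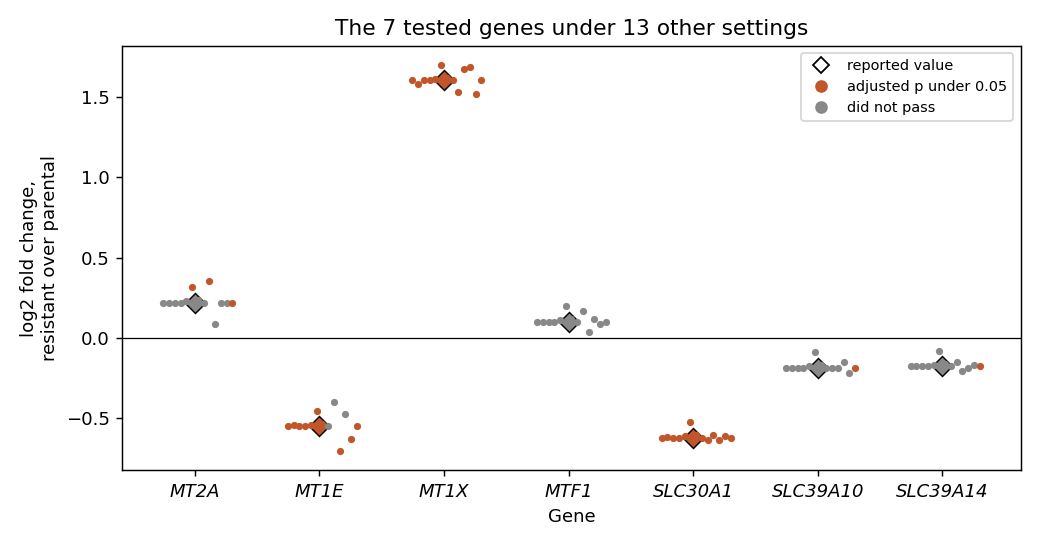
Log2 fold change (y axis) of the 7 tested genes (x axis) as reported (diamonds) and under 13 other settings (dots), coloured where the adjusted p is under 0.05. MT1X and SLC30A1 were called in all 13, MT1E in 10, MT2A in 3, SLC39A10 and SLC39A14 in 1 each and MTF1 in 0.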

How the data were processed

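RNA was sequenced from 2 parental and 2 resistant libraries, grouped by the titles of the samples. The authors deposited a single table of gene values, a column for each library. The build was GRCh38.p10, and the tools named include HISAT2 2.1.0 and Cufflinks 2.2.1, per the submitters' processing notes, which state no roles. Scaling, annotation and strand setting were not found there, so a gene and its antisense partner cannot be told apart. The deposited signal is a fragment number per gene multiplied by 1 factor per library and not divided by gene length. Of low values, 95.7% to 96.1% were whole multiples of that factor within 0.05; intervals of counts were not computed because the remainder is not whole.

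Genes with a value of at least 10 in at least 2 libraries and a sum of at least 15 were tested with limma 3.58.1 (R 4.3.3) on log2(value + 1), with a mean-variance trend, robust moderation, the group alone in the model, two-sided tests and Benjamini-Hochberg adjustment over all genes tested. On this scale the change of low genes is understated. The script was tested on simulated data. Symbols, positions and transcript lengths came from GENCODE 29, which held 57881 of the IDs and left 338 without a record. Promoter windows came from RefSeq.

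The members, gene lists and tests were chosen with earlier results of these data known. All 10 members are named whatever they show, and of the further lists every called gene; other genes are given by counts and range, with a few uncalled ones (such as SOD1, ATP7A, ATP7B and HMOX1) named after their values were seen. Alternatives were 2 pseudocounts, 2 filters, 3 scalings, another variance model, leaving out each library, and the replicate number as a block. TMM factors were computed with an own implementation of that method.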

Additional observations from a re-analysis of the deposited data

How the results depend on the processing

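Under 13 other settings no result that was called reversed. MT1X and SLC30A1 kept their calls in all 13. MT1E was called in 10; besides the libraries named above, it missed with no trend and no robust moderation (−0.55, adjusted p = 0.0735), and over single libraries left out it ran from −0.70 to −0.40. MT2A was called as higher with scaling to the library total (0.32) and with the replicate block (0.22, adjusted p = 0.00329), and it ran from 0.088 to 0.35 without single libraries. With the replicate block SLC39A10 (−0.19, adjusted p = 0.0122) and SLC39A14 (−0.18, adjusted p = 0.0207) were also called, whereas scaling to the library total brought them to −0.09 and −0.08 (adjusted p = 0.344 and 0.451).

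The number of changed genes was 5991 as reported and 3686 with no trend and no robust moderation, of which 1915 were lower. It ran from 3593 to 5476 without single libraries, with 1348 to 2783 genes higher and 2079 to 3147 lower. Replicate numbers share only a label: deviations of same-numbered libraries correlated at r = 0.265 over 16132 genes, and with 2 pairs and no shared culture or day named this does not establish pairing. The replicate block gave 8624 calls.

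In the gene lists, scaling to the library total called 2 metallothioneins higher, 6 copper genes higher and 1 lower, and 1 ZIP gene lower. With no trend and no robust moderation 0 ZnT and 0 ZIP genes were higher, 1 ZIP gene, 0 metallothioneins, 1 copper gene and 1 chromosome 16 neighbour were lower, and 1 copper gene was higher. The replicate block called 2 metallothioneins, 5 copper genes and 1 zinc accessory gene higher and 6 ZIP genes lower. The share of all genes called also moved with the setting, from 37.1% as reported to 39.9% with scaling to the library total. It was 22.8% with no trend and no robust moderation and 53.5% with the replicate block. Without single libraries, genes called higher ran from 0 to 2 in the ZIP list, 0 to 1 in the ZnT and zinc accessory lists, 1 to 2 in the metallothioneins, 2 to 3 among chromosome 16 neighbours and 2 to 4 in the glucocorticoid list. Genes called lower ran from 0 to 1 in the metallothionein, copper and zinc accessory lists and from 2 to 5 among chromosome 16 neighbours. Depth limits MT1F, MT1G and MT1M, each with at most 6 fragments in a library.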

Other observations

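Glucocorticoid-responsive genes, a list kept because metallothionein genes are known to respond to these hormones, went in both directions. Of 11 genes 10 were tested, 4 rose and 4 fell, against 37.1% of all genes tested that were called (the difference was not tested), with a median log2 fold change of 0.16. The clock gene PER1 had 344 and 358 in parental cells, against 710.1 and 715 in resistant cells, a log2 fold change of 1.02 ± 0.11 (SE; limma, adjusted p = 3.06e-04). KLF9 rose by 0.96, TSC22D3 (GILZ) by 0.63 and CEBPD by 0.55. FKBP5, a co-chaperone of the receptor, fell 1.76-fold, from 3684 and 3544 to 2001 and 2106. DUSP1 was 2.49-fold, SGK1 1.79-fold and the receptor gene NR3C1 1.38-fold lower. PER1 and AC129492.3 overlap on the same strand. Without resistant replicate 1 the number of genes higher in this list was 2: the calls of TSC22D3 (0.51) and CEBPD (0.35) were lost, the latter also without parental replicate 1 (0.44).

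Metal and oxidant stress genes were also mixed. Of 13 genes 11 were tested, 2 rose and 4 fell, against 37.1% of all genes tested that were called, with a median of −0.15. TXNRD1, a thioredoxin reductase, rose 1.503-fold from 10707 to 16101 (means, n = 2), and the cystine transporter gene SLC7A11 3.17-fold. GCLM, of glutathione synthesis, was 1.58-fold, DNAJB1 1.40-fold, HSPB1 1.39-fold and SRXN1 1.36-fold lower. The HSPB1 call was lost without resistant replicate 1 (−0.32). HMOX1, which cadmium and heme induce, had 387 and 464 in parental cells, against 383 and 450.1 in resistant cells (log2 fold change −0.03 ± 0.14, SE; limma, adjusted p = 0.895). HSPA1A was listed at 0 in all libraries and lies in the same part of chromosome 6 as SLC39A7.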
